A study of Mus musculus with 30 samples.

Results

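Cytochrome P450 genes outside the Cyp2 family were examined in the livers of 30 mice. They were taken by their names on the array, as Cyp with a family number, a letter and a member number. The Cyp2 genes, Cyp51 and the bile acid enzymes Cyp7a1, Cyp7b1, Cyp8b1 and Cyp27a1 were left out. This gave 32 genes on 44 probes, of 28785 names on the array: 3 of family Cyp1, 6 of Cyp3, 11 of Cyp4 and 12 of other families. RNA of 1 mouse was hybridised to each 1-colour array. The mice were of the inbred strains C57BL/6 (B6) and DBA/2 (D2), with no transgene or deletion named in the labels. They were fed a balanced diet of 200 mg iron per kg, an enriched diet of 8.3 g iron per kg or a deficient diet of less than 3 mg iron per kg, and each of the 6 groups held 5 mice. The labels used here state no sex, age or length of feeding.

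Cytochromes P450 are enzymes that hold iron in a heme group and use it to insert an oxygen atom into lipids, steroids, vitamins and foreign compounds. In liver, Cyp1 genes are targets of the aryl hydrocarbon receptor and Cyp3 genes of the pregnane X receptor, and both families metabolise drugs and toxins. Cyp4 enzymes oxidise the far end of fatty acids and eicosanoids, and Cyp4a genes are textbook targets of PPAR alpha, the nuclear receptor that senses fatty acids. The remaining families have single tasks, such as breaking down retinoic acid (Cyp26), steering steroid synthesis (Cyp17, Cyp21) or activating vitamin D (Cyp27b1). Cyp39a1 hydroxylates an oxysterol and Cyp46a1 hydroxylates cholesterol. Several mouse liver P450 genes are known to differ between the sexes through the timing of growth hormone pulses.

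Levels are log2 normalized intensities of 1 probe, so levels of different probes are not compared, and changes are log2 differences with their standard error (SE) from limma, adjusted over 21071 genes. Both marker genes of the diet, the hormone gene Hamp and the transferrin receptor gene Tfrc, followed the labels: mean Hamp was 15.97, 17.73 and 5.38 in balanced, enriched and deficient B6 livers and 15.25, 17.29 and 5.29 in D2, and mean Tfrc was 9.65, 7.98 and 11.85 in B6 and 8.98, 7.69 and 11.80 in D2. All 7 hepatocyte markers tested were well above background on all 30 arrays and none changed with a diet in the strain averages. In enriched B6 livers 1 of the 7, Apoa1, was called lower, against 2.56% of all genes. Between strains 2 were higher and 2 lower in D2, against 25.9% and 24.2% of all genes. The summed hepatocyte level was 20.49 to 20.59 in balanced B6 and 20.32 to 20.43 in balanced D2 livers. The part of these markers in the changes below was not tested. Genes of the Y chromosome gave a signal on all 30 arrays. All 7 Kupffer cell markers and 5 of 6 sinusoidal endothelial markers were lower in D2, with the summed Kupffer level at 15.55 to 16.66 in balanced B6 and 14.91 to 15.15 in balanced D2 livers; their part in the strain differences below was not tested. In whole liver, fewer cells of a type and less RNA per cell cannot be told apart. The number of arrays limits the precision.

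Of the 32 genes, 28 were bright enough to test. Cyp11a1, Cyp11b2 and Cyp19a1, which make steroid hormones in other organs, and Cyp24a1, which degrades vitamin D, were left untested, with a signal well above background on at most 7 of 30 arrays for any of their probes. Strain parted these genes more widely than diet did. Between strains 20 of 28 differed, 14 lower and 6 higher in D2, beside 24.2% of all tested genes called lower and 25.9% called higher. The largest gaps were those of Cyp3a13 and Cyp39a1, both lower in D2. Iron deficiency, averaged over strains, changed 9 of 28 genes against 8.11% of all genes. Cyp26b1, Cyp4a10 and Cyp4a12 rose (3 of 28, against 3.91% of all genes), though with the mean of its probes Cyp4a12 stood at -0.27 (adjusted p = 0.0868), while Cyp4b1, Cyp4f14, Cyp4f18, Cyp4f13, Cyp4v3 and Cyp1a1 fell (6 of 28, against 4.20%). Iron enrichment, averaged over strains, changed only Cyp3a25 among the 28, which rose (1 of 28, against 2.25% of all genes).

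Within the strains, enrichment changed 5 of 28 genes in B6, 3 upward and 2 downward (5.91% of all genes, 3.35% upward and 2.56% downward), and 0 of 28 in D2 (0.0902% of all genes). At an unadjusted p under 0.05 from limma the count in D2 was 1. Deficiency changed 1 of 28 in B6 (1.80% of all genes) and 6 of 28 in D2, 3 upward and 3 downward (4.68% of all genes, 1.77% upward and 2.90% downward). The difference between the strains' responses was itself tested: it passed for 1 of 28 genes for enrichment, Cyp4v3 (1.11% of all genes), and for 0 of 28 for deficiency (0.0190% of all genes; 3 of 28 at an unadjusted p under 0.05 from limma). Changes called in 1 strain alone are therefore not shown to differ from the other strain, except for Cyp4v3. The diet comparisons for a strain share its balanced mice.

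**Figure D1:**
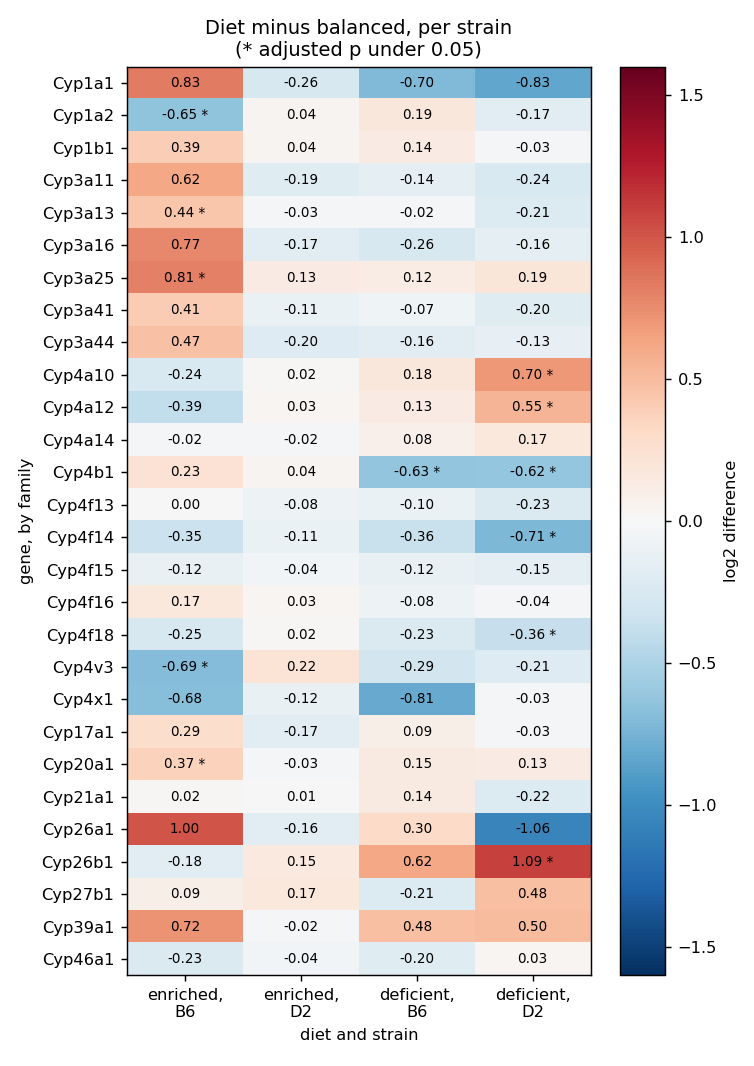
Log2 difference from the balanced diet for the 28 tested genes (rows, ordered by family) in each diet and strain (columns), from 5 mice per group. An asterisk marks an adjusted p under 0.05; the enriched D2 column holds none, and its values lie between -0.26 and 0.22.

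In the Cyp1 family, Cyp1a2 was 3.39-fold higher in D2 (log2 1.76, SE 0.08, adjusted p = 6.59e-17). Cyp1a2 is a liver enzyme that metabolises caffeine and aromatic amines. Over the 15 B6 mice its level ran from 11.79 to 13.49 with a median of 12.75, and over the 15 D2 mice from 14.11 to 14.63 with a median of 14.48. The strains did not overlap. Its gap was 1.65 on the balanced, 2.34 on the enriched and 1.30 on the deficient diet, and within scan days 2 and 3 alone it was 1.81 and 1.64 over all diets. Values within a scan day rest on few mice: day 2 held 1 balanced and 1 enriched B6 mouse and 1 enriched D2 mouse, and day 3 held 1 balanced D2 mouse. A lone mouse was assumed to vary like the other groups of its day. Of 9 genes that mark the pericentral zone of the liver lobule, where Cyp1a2 is known to be expressed, 6 were higher and 1 was lower in D2, against 25.9% and 24.2% of all genes; their part in the gap was not tested.

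Cyp1a2 fell in iron-enriched B6 livers. The 5 balanced B6 mice were at 12.75, 12.58, 12.90, 13.00 and 13.00, and the 5 enriched at 12.16, 12.44, 12.46, 11.79 and 12.15. Every enriched mouse lay below every balanced mouse. The change was -0.65 (SE 0.13, adjusted p = 0.00298), and its other probe gave -0.66. In D2 the change was 0.04, but the difference between strains missed the threshold (0.69, SE 0.19, adjusted p = 0.0717). With the 2 compared groups alone the adjusted p was 0.0551, and within scan day 3 (3 balanced and 4 enriched mice) the change was -0.72, not past the threshold. On scan day 2 the single enriched mouse was 0.30 below the single balanced one (-0.30). Of the 9 pericentral genes Glul, Rhbg and Gulo fell in enriched B6 livers and 0 rose (3 of 9 lower, against 2.56% of all genes), and their summed level was 17.44 to 17.94 in balanced and 17.25 to 17.58 in enriched B6 livers; their part in the change was not tested.

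Cyp1a1, the classic target of the aryl hydrocarbon receptor, was dim. It stood at 5.01, 5.65, 4.54, 4.69 and 4.76 in balanced B6, at 4.71, 6.16, 6.19, 5.72 and 6.01 in enriched B6 and at 3.92, 4.43, 3.92, 3.92 and 4.95 in deficient B6 livers. Here 3.92 is the floor, and 3 of 5 deficient B6 arrays were marked well above background. In D2 the balanced mice were at 5.91, 5.54, 5.11, 5.65 and 6.44 and the deficient at 4.77, 5.73, 3.92, 4.84 and 5.22. Deficient and balanced mice overlapped in both strains. Averaged over strains the deficient level was lower by 0.77 on the log2 scale (-0.77, SE 0.21, adjusted p = 0.025). The size depended on the background correction, being -0.26 with normexp. The call was lost without B6 balanced mouse 2 (-0.68 with adjusted p = 0.0528). It was also lost without mouse 5 of the balanced D2 group (-0.68, adjusted p = 0.0552), without mouse 3 of the deficient D2 group (-0.64, adjusted p = 0.0534) and with slide as a block (-0.82, adjusted p = 0.0516). Within scan days 2 and 3 the change was -0.61 and -1.48.

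Cyp1b1, which oxidises steroids and aromatic hydrocarbons mainly outside the liver, was dim as well and lower in D2 (-0.61, SE 0.18, adjusted p = 0.00683), with no diet call. The other genes of the aryl hydrocarbon receptor pathway numbered 7 tested. None changed with deficiency averaged over strains, and Nqo1, a quinone reductase, rose by 0.99 (SE 0.23, adjusted p = 0.00902) and Gsta1, a glutathione transferase, by 0.70 (SE 0.20, adjusted p = 0.0389) in enriched B6 livers. These were 2 of 7, with 0 called lower and a median of 0.06, where 3.35% of all genes rose and 2.56% fell.

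**Figure D2:**
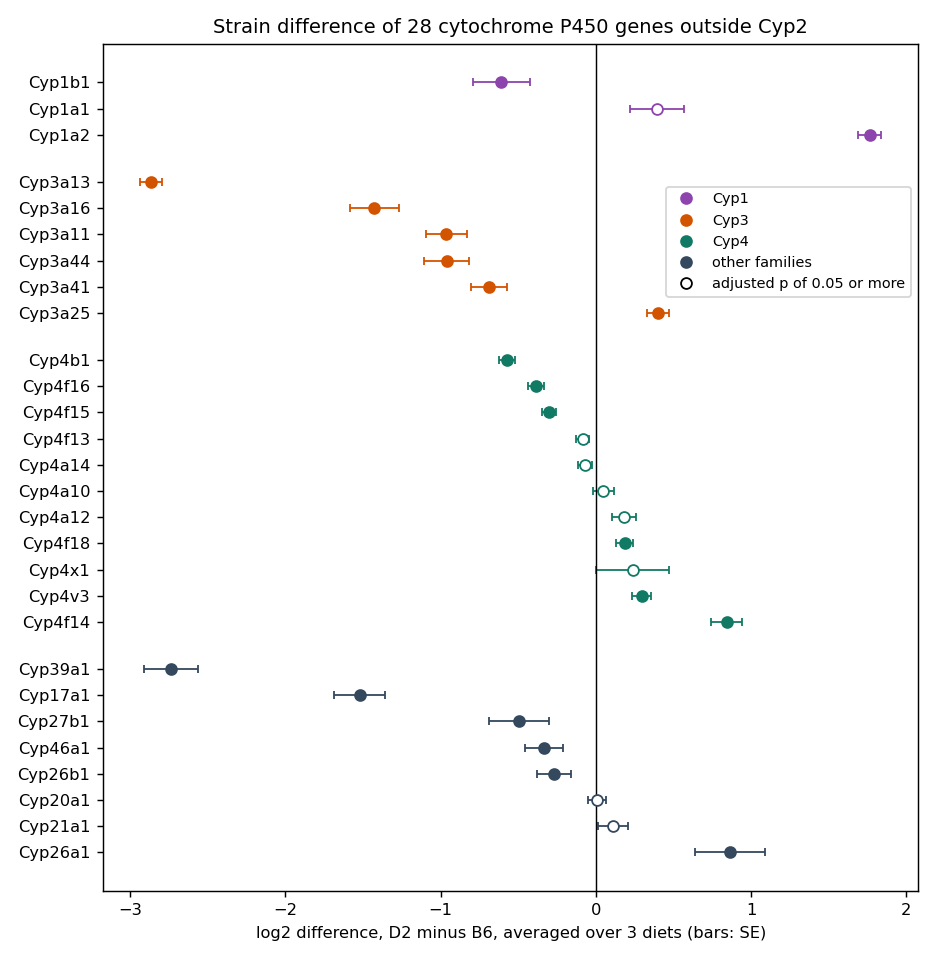
Log2 difference D2 minus B6, averaged over the 3 diets (horizontal axis), for the 28 tested genes by family, with 15 mice per strain. Points are estimates and bars the SE; filled points passed an adjusted p of 0.05. In Cyp3, 5 of 6 genes lie left of 0, with Cyp3a13 at -2.87, and Cyp1a2 lies farthest right at 1.76.

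In the Cyp3 family all 6 genes differed between strains, 5 lower and 1 higher in D2, against 24.2% and 25.9% of all genes. Their median was -0.96 beside -0.01 over all genes tested. Cyp3a11, Cyp3a16, Cyp3a41 and Cyp3a44 may share a signal, as described below. The same counts of lower and higher calls came with 75th percentile scaling, without normalization between arrays and with normexp background correction; with the mean of probes 4 were called lower. Cyp3a13, a form expressed in liver and gut, had the widest gap of all 28 genes: D2 was lower by 2.87 (-2.87, SE 0.07, adjusted p = 1.72e-22), a 7.29-fold difference. It ran from 15.40 to 16.22 (median 15.61) over 15 B6 mice and from 12.39 to 13.22 (median 12.82) over 15 D2 mice, without overlap. The gap was -2.64, -3.12 and -2.84 on the balanced, enriched and deficient diets, and -2.94 within scan day 2 and within scan day 3. Cyp3a13 has 1 probe, and sequence differences between the strains under it were not tested.

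Cyp3a11, the main drug-metabolising form of mouse liver, and Cyp3a16, Cyp3a41 and Cyp3a44, known as forms more abundant in females, lie near each other on chromosome 5. Cyp3a16 was 2.69-fold lower in D2 (-1.43, SE 0.16, adjusted p = 1.35e-08). Its level ran from 15.32 to 17.49 (median 16.87) in B6 and from 14.61 to 15.67 (median 15.28) in D2, with overlap. Cyp3a11 differed by -0.96 (SE 0.13, adjusted p = 4.81e-07), Cyp3a44 by -0.96 (SE 0.14, adjusted p = 2.4e-06) and Cyp3a41 by -0.69 (SE 0.12, adjusted p = 1.37e-05). Within scan day 3 the gaps of Cyp3a16, Cyp3a11, Cyp3a44 and Cyp3a41 were -1.48, -0.97, -0.99 and -0.79, all past the threshold. Within scan day 2 they were -1.12, -0.75, -0.65 and -0.45, none past it. Of 13 other female-biased liver genes 7 were lower and 1 higher in D2 (median -0.50). Of 11 male-biased genes 10 were higher and 0 lower (median 0.84). Over all genes 24.2% were lower and 25.9% higher in D2. On the balanced diet alone, 0 of 13 female-biased genes were lower and 2 higher (median -0.09). Of the 11 male-biased genes 2 were higher and 0 lower there (median 0.40), where 30.1% of all genes were called either way. The median summed level of the female-biased genes was 13.45 in balanced B6 and 15.33 in balanced D2 livers. The part of these sex-biased genes in the gaps was not tested.

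The brightest probes of these genes varied together from mouse to mouse. In balanced B6 livers Cyp3a11 was at 17.32, 18.00, 18.16, 16.96 and 17.77, Cyp3a16 at 15.98, 16.87, 16.88, 15.78 and 16.68 and Cyp3a44 at 16.68, 17.31, 17.34, 16.44 and 17.23. Mouse 4 was lowest and mouse 1 next lowest for each. Among balanced D2 mice the lowest was mouse 4 for Cyp3a11 (16.36), Cyp3a16 (14.71), Cyp3a41 (16.91) and Cyp3a44 (15.50) alike. The genes are close copies, so cross-hybridisation could give 1 signal on several probes; it was not measured, and their separate levels are uncertain. A dimmer Cyp3a44 probe did not share the strain gap. It ran from 7.18 to 10.58 (median 9.15) in B6 and from 8.42 to 10.59 (median 10.04) in D2. It was higher in D2 by 0.75 (adjusted p = 0.0345 over probes). Within the balanced groups its lowest values were also in B6 mice 1 and 4 (7.18 and 8.22) and in D2 mouse 4 (8.42). With the mean of both probes the Cyp3a44 gap was -0.11 (adjusted p = 0.693).

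**Figure D3:**
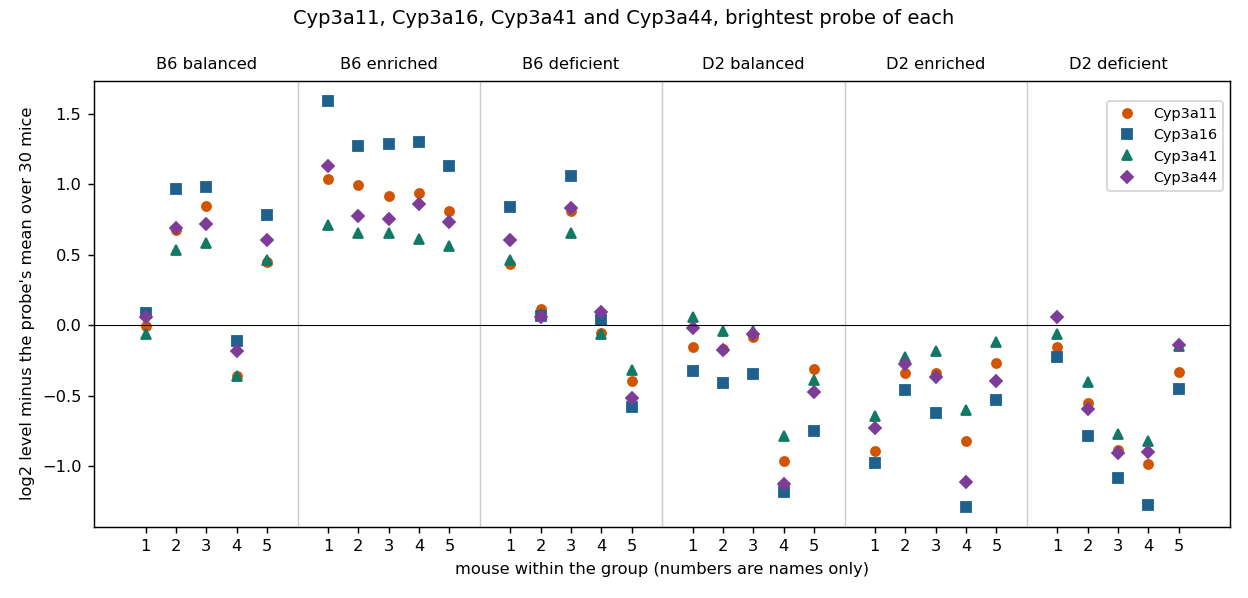
Level of the brightest probe of Cyp3a11, Cyp3a16, Cyp3a41 and Cyp3a44 in each of 30 mice, as the log2 difference from that probe's mean over all mice (vertical axis), by group. The markers of a mouse move together: all 5 enriched B6 mice lie above 0 for every gene, and balanced D2 mouse 4 is lowest of its group for every gene.

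The upstream sequences of these 4 genes are shown because their probes varied together. Each is the 250 bases before the RefSeq gene start, 5′ to 3′ on the gene's strand in GRCm38.p6, with capitals for the nuclear receptor half-sites AGGTCA and AGTTCA on either strand. The windows are chr5:145879855-145880104 for Cyp3a11, chr5:145469724-145469973 for Cyp3a16, chr5:145720137-145720386 for Cyp3a41a (the gene named Cyp3a41 on the array) and chr5:145805875-145806124 for Cyp3a44, all on the minus strand.
Cyp3a11: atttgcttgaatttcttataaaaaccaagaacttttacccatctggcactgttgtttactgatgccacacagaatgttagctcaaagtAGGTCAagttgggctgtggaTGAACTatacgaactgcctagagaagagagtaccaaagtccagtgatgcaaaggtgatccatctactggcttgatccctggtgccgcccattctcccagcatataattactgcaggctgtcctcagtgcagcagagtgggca
Cyp3a16: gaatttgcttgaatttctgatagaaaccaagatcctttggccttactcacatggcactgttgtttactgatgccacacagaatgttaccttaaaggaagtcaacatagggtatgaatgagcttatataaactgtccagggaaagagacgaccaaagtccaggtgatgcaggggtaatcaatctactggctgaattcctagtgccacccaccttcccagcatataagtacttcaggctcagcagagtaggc
Cyp3a41a: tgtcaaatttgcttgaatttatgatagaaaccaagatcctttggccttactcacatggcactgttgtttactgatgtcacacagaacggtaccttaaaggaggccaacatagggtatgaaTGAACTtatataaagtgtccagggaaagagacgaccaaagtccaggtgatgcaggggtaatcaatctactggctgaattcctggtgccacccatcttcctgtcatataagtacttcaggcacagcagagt
Cyp3a44: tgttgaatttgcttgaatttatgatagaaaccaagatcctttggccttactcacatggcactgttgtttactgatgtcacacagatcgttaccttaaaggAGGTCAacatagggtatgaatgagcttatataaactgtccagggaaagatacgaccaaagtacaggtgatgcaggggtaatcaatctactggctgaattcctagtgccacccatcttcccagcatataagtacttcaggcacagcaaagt
Between Cyp3a16, Cyp3a41a and Cyp3a44 93.9% to 95.9% of aligned bases were identical, and between Cyp3a11 and each of them 80.9% to 83.3%. AGGTCA is in the Cyp3a11 and Cyp3a44 windows and AGTTCA in those of Cyp3a11 and Cyp3a41a. Among all 32851 windows of this length in the table, 14.0% hold AGGTCA and 11.8% AGTTCA. Such matches only describe the letters.

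In enriched B6 livers all 6 Cyp3 changes were above 0, from 0.41 to 0.81 with a median of 0.54 beside 0.03 over all genes tested. All 6 were above 0 with 75th percentile scaling, without normalization and with normexp too. Cyp3a11, Cyp3a16, Cyp3a41 and Cyp3a44 may carry 1 shared signal, so these 6 changes may not be separate. The threshold was passed by 2 of 6 Cyp3 genes, against 3.35% of all genes called higher. Cyp3a25, a liver form close to Cyp3a11, was at 16.12, 16.33, 16.30, 15.70 and 16.07 in balanced and at 17.07, 16.82, 16.89, 16.90 and 16.85 in enriched B6 livers. No mouse overlapped. It rose 1.75-fold in B6 (0.81, SE 0.13, adjusted p = 0.000186), and its dimmer probe rose by 0.82. In D2, where balanced mice stood at 16.90, 16.95, 16.54, 16.68 and 16.45 and enriched mice at 17.16, 16.96, 16.90, 16.60 and 16.56, the change was 0.13. The difference between strains was -0.68 (SE 0.18, adjusted p = 0.0625). Averaged over strains the rise was 0.47 (SE 0.09, adjusted p = 0.0034), and within scan days 2 and 3 it was 0.40 and 0.75. Without normalization between arrays it was 0.37 (adjusted p = 0.0782).

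Cyp3a13 stood at 15.61, 15.42, 15.42, 15.76 and 15.48 in balanced and at 15.95, 15.87, 16.22, 16.02 and 15.84 in enriched B6 livers, which did not overlap. It rose by 0.44 (SE 0.12, adjusted p = 0.0284). That call was lost without B6 balanced mouse 2, 3 or 5 or B6 enriched mouse 3 or 4 (0.38 to 0.43, adjusted p = 0.0594 to 0.0896), with 75th percentile scaling (adjusted p = 0.0511) and with the 2 compared groups alone (adjusted p = 0.0558). The values of Cyp3a16 (0.77, SE 0.27, adjusted p = 0.0972), Cyp3a11 (0.62, SE 0.22, adjusted p = 0.114), Cyp3a44 (0.47) and Cyp3a41 (0.41) missed the threshold. In enriched B6 livers Cyp3a11 was at 18.36, 18.31, 18.24, 18.26 and 18.13, against 16.96 to 18.16 on the balanced diet. The probe reached rank 11 of 41174 in brightness, where quantile normalization gives all arrays the same few top values, so the spread among its highest levels is not read. In D2 the changes of 5 of 6 Cyp3 genes were below 0 (6 of 6 without normalization between arrays), down to -0.20, and none passed (limma). Without normalization 11 of 11 Cyp4, 3 of 3 Cyp1 and 7 of 8 genes of other families were below 0 as well. Deficiency changed 0 of 6 Cyp3 genes in any of its comparisons (0 of 6 at an unadjusted p under 0.05 from limma).

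Of 12 other genes of the pregnane X receptor and its relative CAR, Abcb1a (1.45, SE 0.29, adjusted p = 0.00237), Gstm1 (0.60, SE 0.12, adjusted p = 0.00188) and Abcc3 (0.56, SE 0.11, adjusted p = 0.0013) rose in enriched B6 livers. Of the 12, 0 were called lower there and their median was 0.05, where 3.35% of all genes rose and 2.56% fell. Abcb1a and Abcc3 export drugs and conjugates, and Gstm1 conjugates them to glutathione. Under deficiency averaged over strains Ugt1a1, Aldh1a7 and Nr1i3 rose by 0.35, 0.35 and 0.28. These were 3 of 12, with 0 called lower and a median of -0.10, where 3.91% of all genes rose and 4.20% fell.

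In the Cyp4 family 11 genes were tested. Deficiency averaged over strains changed 7 of them, 2 upward and 5 downward, beside 3.91% and 4.20% of all genes. The counts were 1 and 4 without normalization, 1 and 5 with the mean of probes and 1 and 2 with slide as a block. The 2 upward genes, Cyp4a10 and Cyp4a12 by its brighter probe, may share a signal, as described below. The dimmer Cyp4a12 probe fell (-0.88, adjusted p = 0.0073 over probes). Cyp4b1, which oxidises short fatty acids and some toxins, gave the smallest adjusted p. It was at 11.87, 11.87, 11.95, 11.63 and 11.84 in balanced and at 11.09, 11.08, 11.13, 11.41 and 11.32 in deficient B6 livers. In D2 it was at 11.28, 11.35, 11.28, 11.49 and 11.22 and at 10.53, 10.70, 10.68, 10.52 and 11.07. Every deficient mouse of both strains lay below every balanced mouse of its strain. The fall was -0.63 (SE 0.06, adjusted p = 7.02e-07), or 1.54-fold, at -0.63 in B6 (adjusted p = 0.000456) and -0.62 in D2 (adjusted p = 0.000238). Within scan days 2 and 3 the averaged change was -0.55 and -0.66. D2 was also lower than B6 by 0.57 (-0.57, SE 0.05, adjusted p = 4.58e-10).

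Cyp4f enzymes inactivate leukotriene B4 and shorten vitamin E side chains. Cyp4f14 was at 14.94, 14.86, 14.99, 15.00 and 14.95 in balanced and at 14.35, 13.78, 14.14, 14.41 and 14.47 in deficient D2 livers, without overlap. In B6 the balanced mice, at 13.70, 13.71, 14.39, 14.15 and 14.36, overlapped the deficient mice, at 13.36, 14.23, 13.43, 13.51 and 14.00. The change averaged over strains was -0.54 (SE 0.12, adjusted p = 0.00543), -0.71 in D2 (SE 0.17, adjusted p = 0.015) and -0.36 in B6 (adjusted p = 0.38). With slide as a block the averaged and the D2 calls were lost (adjusted p = 0.0542 and 0.0779), and within scan days 2 and 3 the averaged change was -0.27 and -0.49, neither past the threshold. D2 stood above B6 by 0.84 (SE 0.10, adjusted p = 3.99e-08), with 13.23 to 14.39 (median 13.83) in B6 and 13.78 to 15.00 (median 14.86) in D2.

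Cyp4f18, expressed in neutrophils as well as liver, fell by 0.30 under deficiency (-0.30, SE 0.07, adjusted p = 0.00553) and by 0.36 in D2 (-0.36, SE 0.10, adjusted p = 0.0258). In D2 the balanced mice were at 13.17, 13.25, 13.30, 13.30 and 13.04 and the deficient at 12.81, 12.73, 12.73, 12.99 and 12.96. These groups did not overlap. The D2 call was lost without D2 balanced mouse 3 or 4 or D2 deficient mouse 1, 2 or 3 (-0.36 to -0.34, adjusted p = 0.0598 to 0.0731), with slide as a block and with the compared groups alone. Within scan days 2 and 3 the averaged change was -0.31 and -0.19, neither past the threshold. Cyp4f13 fell by 0.17 (-0.17, SE 0.05, adjusted p = 0.0367). Its call was lost without normalization (adjusted p = 0.117), with normexp (adjusted p = 0.125), with slide as a block (adjusted p = 0.0909) and with the compared groups alone (adjusted p = 0.101). It was also lost without any 1 of 12 mice: B6 balanced mouse 3, 4 or 5, B6 deficient mouse 1, 3 or 4, D2 balanced mouse 2, 4 or 5, and D2 deficient mouse 1, 3 or 5 (-0.17 to -0.14, adjusted p = 0.0513 to 0.0780). Cyp4f15 (-0.14, adjusted p = 0.126) and Cyp4f16 (-0.06, adjusted p = 0.659) missed the threshold. Cyp4f15 and Cyp4f16 were lower in D2 than in B6 by 0.30 and 0.39 (-0.30 and -0.39).

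**Figure D4:**
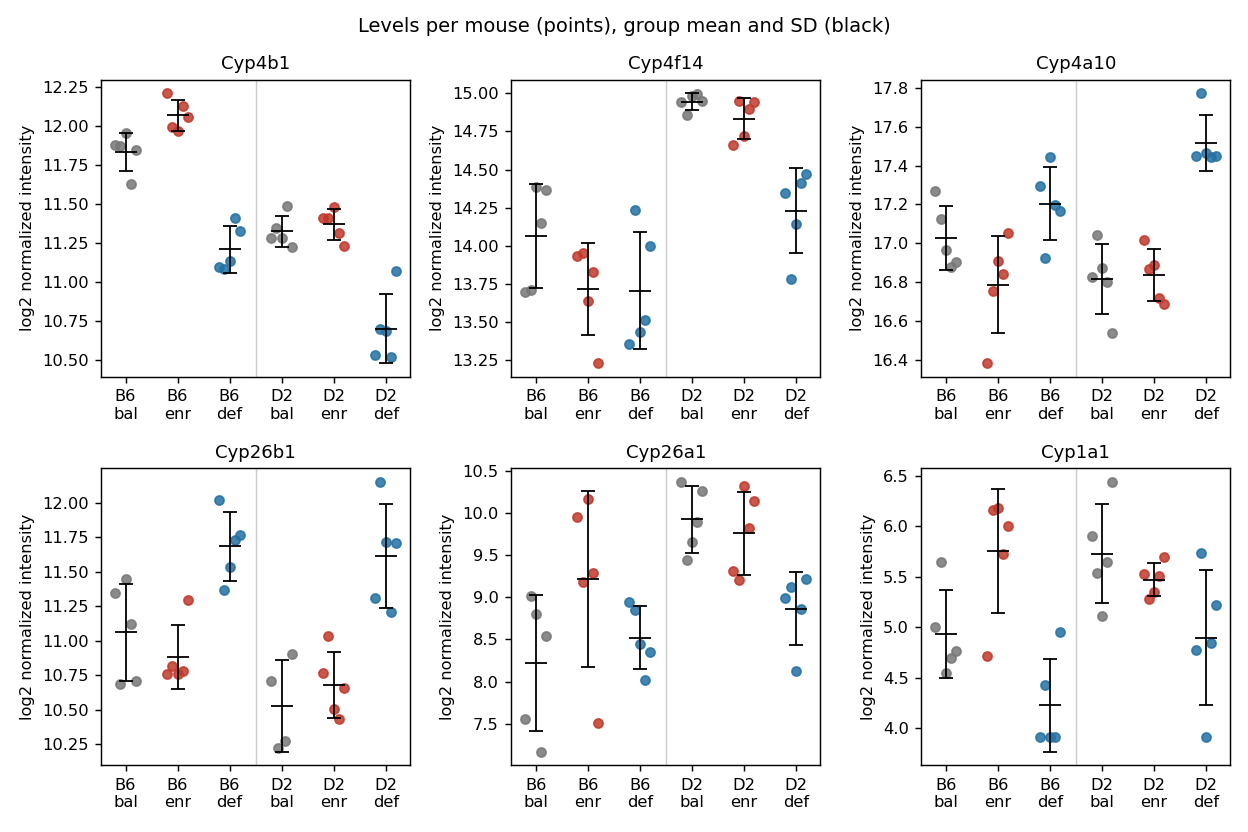
Log2 normalized intensity of 6 genes (panels) in each mouse (points; grey balanced, red enriched, blue deficient) with group mean and SD in black, 5 mice per group (4 in balanced D2 for Cyp26b1). Deficient mice lie below balanced mice in both strains for Cyp4b1, and in D2 for Cyp4f14 and Cyp26a1; they lie above them in D2 for Cyp4a10 and Cyp26b1.

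Cyp4a10, a PPAR alpha target, rose under deficiency. It was at 16.83, 17.04, 16.87, 16.80 and 16.54 in balanced and at 17.45, 17.77, 17.46, 17.44 and 17.45 in deficient D2 livers, without overlap. In B6 it was at 17.27, 17.12, 16.96, 16.88 and 16.90 and at 17.29, 16.92, 17.44, 17.20 and 17.17, with overlap. The rise was 0.44 averaged over strains (SE 0.08, adjusted p = 0.00119) and 0.70 in D2 (SE 0.12, adjusted p = 0.000976), against 0.18 in B6 (adjusted p = 0.585). The difference between strains was 0.52 (SE 0.16, adjusted p = 0.461). Its dimmer probes gave 0.46 and 0.61 averaged over strains, both past the threshold. Within scan days 2 and 3 the averaged change was 0.27 and 0.53, neither past it.

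Cyp4a14, likewise a PPAR alpha target, ranked among the 15 brightest of all 41174 probes on every array, so its range was narrow (18.23 to 18.72 over 30 mice). Its change in D2 was 0.17 (adjusted p = 0.219). Of 17 other genes of the PPAR alpha pathway, 7 rose and 0 fell under deficiency averaged over strains, against 3.91% and 4.20% of all genes. Their median was 0.27 beside -0.00018 over all genes tested. Pdk4, which spares glucose, rose by 1.40 (SE 0.18, adjusted p = 2.75e-05), and the peroxisomal enzyme gene Ehhadh by 0.82 (SE 0.13, adjusted p = 0.000363). Acot2 and Acot1, which release fatty acids from coenzyme A, rose by 0.89 and 0.69, the hormone gene Fgf21 by 1.13 and Cpt1a, the gate of mitochondrial fat oxidation, by 0.27.

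Cyp4a12, known as a male-specific form that makes the vasoconstrictor 20-HETE, has a pair of probes that disagreed. The brighter probe stood for the gene: in D2 it was at 15.93, 16.23, 16.03, 16.06 and 15.59 in balanced and at 16.54, 16.62, 16.52, 16.47 and 16.44 in deficient livers. These groups did not overlap. It rose by 0.55 in D2 (SE 0.13, adjusted p = 0.017) and by 0.34 averaged over strains (SE 0.09, adjusted p = 0.023). Without D2 balanced mouse 5 both calls were lost (0.46, adjusted p = 0.065, and 0.29, adjusted p = 0.0502). The averaged call was also lost with 75th percentile scaling (adjusted p = 0.0623), without normalization (adjusted p = 0.0718) and with slide as a block (adjusted p = 0.0724), and the D2 call without normalization (0.45, adjusted p = 0.113). Within scan days 2 and 3 the averaged change was 0.17 and 0.51, neither past the threshold.

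The dimmer Cyp4a12 probe, singled out after its values were seen, showed the largest enrichment change and the largest deficiency change in B6 of all 37 tested probes of these genes. It was at 15.01, 14.39, 14.81, 15.33 and 14.58 in balanced, at 12.60, 12.05, 12.10, 12.05 and 11.55 in enriched and at 13.49, 13.96, 11.74, 14.15 and 13.86 in deficient B6 livers. Neither iron diet overlapped the balanced diet. In D2 it lay between 15.90 and 16.06 on the balanced, 15.93 and 16.13 on the enriched and 15.20 and 15.98 on the deficient diet. In B6 enrichment lowered it 6.75-fold (-2.76, SE 0.29, adjusted p = 6.97e-07 over 29986 probes) and deficiency 2.61-fold (-1.38, SE 0.29, adjusted p = 0.0116). In D2 the changes were -0.0026 and -0.37, neither past the threshold. The difference between strains passed for enrichment (2.75, SE 0.40, adjusted p = 0.000606) and not for deficiency (1.01, adjusted p = 0.669). The strains differed by 2.44 over all diets (adjusted p = 9.21e-13), D2 being higher. With the mean of both probes the deficiency change averaged over strains was -0.27 (adjusted p = 0.0868) and the D2 change 0.09 (adjusted p = 0.857). The brighter probe varied with Cyp4a10 from mouse to mouse. In deficient B6 livers Cyp4a10 was at 17.29, 16.92, 17.44, 17.20 and 17.17. The brighter Cyp4a12 probe was at 16.42, 15.74, 16.47, 16.26 and 16.12, in the same order of mice. In D2, balanced mouse 5 was lowest and deficient mouse 2 highest of its group on both. Cross-hybridisation between Cyp4a10 and Cyp4a12 was not measured. Which probe measures Cyp4a12 alone was not tested, so its level and its direction are uncertain.

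Genes with a known sex bias moved beside the dimmer Cyp4a12 probe in enriched B6 livers. Over all genes 3.35% rose and 2.56% fell there. Of 11 male-biased genes that are no P450, 8 fell and 0 rose (median -1.58, beside 0.03 over all genes tested), with Hsd3b5, a steroid dehydrogenase, at -6.98 (SE 0.73, adjusted p = 7.82e-07) and Slco1a1, an organic anion transporter, at -3.72 (SE 0.39, adjusted p = 7.66e-07). Of 13 female-biased genes 5 rose and 0 fell (median 1.26), with the sulfotransferase Sult3a1 at 2.28 (SE 0.38, adjusted p = 0.000412). The growth hormone receptor gene Ghr (-0.58, SE 0.10, adjusted p = 0.000761) and Igfals (-0.89, SE 0.19, adjusted p = 0.00397) fell. In D2 none of the male-biased or female-biased genes passed under enrichment (limma). In deficient B6 livers 3 of 11 male-biased genes fell and 2 of 13 female-biased genes rose, where 1.80% of all genes changed either way. The summed male-biased level was 20.06 to 20.41 in balanced, 19.57 to 19.77 in enriched and 19.49 to 19.97 in deficient B6 livers, and 20.24 to 20.52, 20.29 to 20.45 and 19.97 to 20.36 on those diets in D2. Their part in the P450 changes was not tested.

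Cyp4v3, which hydroxylates long fatty acids and whose human counterpart is mutated in a retinal dystrophy, was the only one of the 28 genes whose response to enrichment differed between strains. In B6 it was at 15.33, 15.33, 15.13, 15.37 and 15.23 in balanced and at 14.70, 14.58, 14.74, 14.47 and 14.44 in enriched livers. These did not overlap. In D2 it was at 15.13, 15.53, 15.25, 15.34 and 14.96 and at 15.52, 15.66, 15.43, 15.54 and 15.16, with 4 of 5 enriched mice above the balanced mean. It fell 1.62-fold in B6 (-0.69, SE 0.10, adjusted p = 0.000109), against 0.22 in D2 (SE 0.10, adjusted p = 0.872). The difference between strains was 0.91 (SE 0.15, adjusted p = 0.00149). Within scan days 2 and 3 it was 0.87 and 1.36, values in which 3 groups of day 2 and 1 group of day 3 were a single mouse. It passed whichever single mouse was left out (0.84 to 0.99). Under deficiency it fell by 0.25 averaged over strains (-0.25, SE 0.07, adjusted p = 0.0342), a call lost without any 1 of 10 mice: B6 balanced mouse 1, 2 or 4, B6 deficient mouse 3 or 4, D2 balanced mouse 2 or 4, and D2 deficient mouse 1, 2 or 5 (-0.25 to -0.21, adjusted p = 0.0505 to 0.0706). That call was also lost with slide as a block (-0.18, adjusted p = 0.185) and with the compared groups alone (adjusted p = 0.0577). Cyp4x1, of unsettled function, varied from 10.38 to 13.38 and passed in no comparison.

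**Figure D5:**
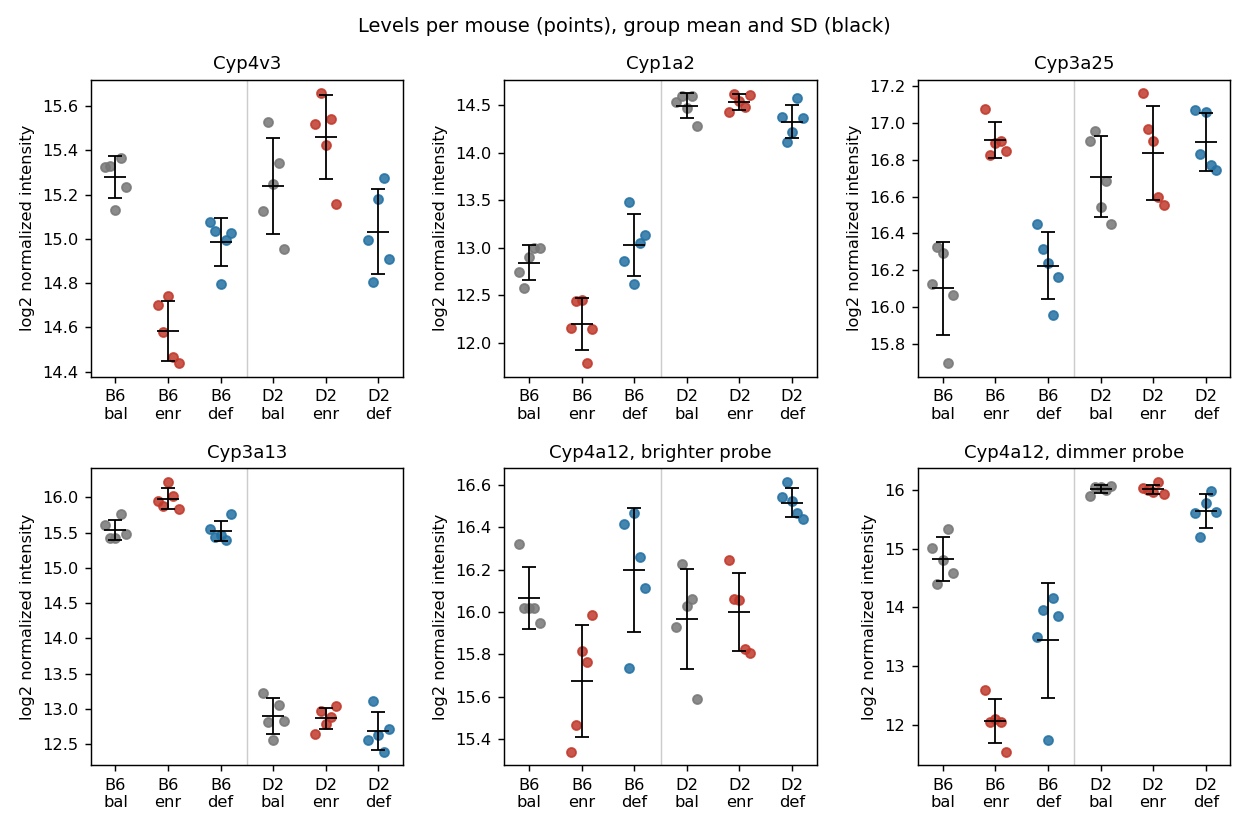
Log2 normalized intensity in each mouse (points; grey balanced, red enriched, blue deficient) with group mean and SD in black, 5 mice per group, for Cyp4v3, Cyp1a2, Cyp3a25, Cyp3a13 and both Cyp4a12 probes. In B6 the enriched mice lie below the balanced mice for Cyp4v3, Cyp1a2 and the dimmer Cyp4a12 probe and above them for Cyp3a25 and Cyp3a13; the Cyp4a12 panels differ in B6.

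Among the other families, Cyp26a1 and Cyp26b1 break down retinoic acid, and Cyp26a1 is a well-known target of the retinoic acid receptors. Their upstream sequences, 250 bases each in GRCm38.p6, are shown because their values in deficient D2 livers lay on opposite sides of the balanced group. They are chr19:37697558-37697807 (plus strand) for Cyp26a1 and chr6:84593811-84594060 (minus strand) for Cyp26b1. Capitals mark a direct repeat of AGTTCA with 5 bases between the copies, a retinoic acid receptor motif, on either strand.
Cyp26a1: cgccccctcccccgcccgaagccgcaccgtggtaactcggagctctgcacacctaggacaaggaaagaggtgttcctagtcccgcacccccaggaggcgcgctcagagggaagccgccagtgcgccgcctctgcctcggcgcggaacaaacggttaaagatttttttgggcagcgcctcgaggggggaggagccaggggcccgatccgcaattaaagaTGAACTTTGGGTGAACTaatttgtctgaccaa
Cyp26b1: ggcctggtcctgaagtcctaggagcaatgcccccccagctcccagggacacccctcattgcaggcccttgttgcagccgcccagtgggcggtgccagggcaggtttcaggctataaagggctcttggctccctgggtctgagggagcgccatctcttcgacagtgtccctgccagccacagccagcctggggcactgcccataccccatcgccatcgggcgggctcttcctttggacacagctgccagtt
The repeat lies on the opposite strand of the Cyp26a1 window, from position -32 to -16 before the start. It is in 7 of all 32851 windows, or 0.0213%. The Cyp26b1 window has no such letters.

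Cyp26b1 was at 10.71, 10.23, 10.27 and 10.91 in 4 balanced and at 11.31, 12.15, 11.71, 11.21 and 11.71 in deficient D2 livers; the spot of D2 balanced mouse 5 was left out as an outlier within its array. The groups did not overlap. In B6 it was at 11.34, 10.69, 11.45, 11.13 and 10.71 and at 12.02, 11.37, 11.53, 11.73 and 11.77, with overlap. The rise was 1.81-fold averaged over strains (0.86, SE 0.13, adjusted p = 0.000262) and 2.13-fold in D2 (1.09, SE 0.20, adjusted p = 0.00209), against 0.62 in B6 (adjusted p = 0.0883). Within scan day 2 the averaged change was 0.69, not past the threshold, and day 3 held no value from a balanced D2 mouse. Cyp26a1 went from 10.37, 9.44, 9.66, 9.89 and 10.26 to 8.99, 9.13, 8.12, 8.86 and 9.21 in D2. The groups did not overlap, but the change of -1.06 (SE 0.39, adjusted p = 0.126) missed the threshold. In B6 the 15 mice ranged from 7.17 to 10.16. Cyp26a1 was higher in D2 by 0.86 over all diets (SE 0.23, adjusted p = 0.00213), by 1.39 within scan day 2 and by 0.57 within scan day 3, where it missed the threshold.

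Of 14 other retinoid genes tested, 4 rose and 1 fell under deficiency averaged over strains, against 3.91% and 4.20% of all genes. Rdh11, a retinal reductase, rose by 0.90 (SE 0.15, adjusted p = 0.000409), the receptor gene Rarb by 0.42 (SE 0.07, adjusted p = 0.000291) and the retinol dehydrogenase gene Rdh16 by 0.33 (SE 0.08, adjusted p = 0.00553). Dhrs3, which returns retinal to retinol, fell by 0.27 (-0.27, SE 0.07, adjusted p = 0.0184). Stellate cells hold the liver's retinoid store, and 2 of 7 stellate and fibroblast markers, Reln and Dcn, rose under deficiency averaged over strains by 0.51 and 0.48. Of the 7, 0 were called lower, and their median was -0.02, where 3.91% of all genes rose and 4.20% fell. In B6 1 of the 7 rose (median 0.17), and in D2 0 of the 7 passed (median -0.17). The summed level of those 7 was 14.57 to 15.07 in balanced and 15.02 to 15.38 in deficient B6 livers, and 13.87 to 15.26 and 14.90 to 15.25 in D2. Their part in the Cyp26b1 change was not tested.

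Cyp39a1, which hydroxylates 24-hydroxycholesterol and is known as a female-biased liver gene, was 6.67-fold lower in D2 (-2.74, SE 0.17, adjusted p = 2.75e-13). It ran from 13.20 to 14.61 (median 13.95) over 15 B6 and from 10.12 to 12.93 (median 11.06) over 15 D2 mice, without overlap. The next highest D2 value after deficient mouse 2 (12.93) was 11.75. Its other probe gave -2.79, and within scan days 2 and 3 the gap was -2.90 and -3.14. Enriched B6 mice, at 14.02, 13.84, 14.61, 13.99 and 14.25, lay above all balanced B6 mice, at 13.61, 13.20, 13.39, 13.24 and 13.67, but the change of 0.72 (SE 0.30, adjusted p = 0.191) missed the threshold.

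Cyp17a1, the steroid 17-hydroxylase, was 2.87-fold lower in D2 (-1.52, SE 0.17, adjusted p = 1.64e-08). It ran from 12.05 to 13.54 (median 12.80) in 15 B6 mice and from 10.58 to 11.68 (median 11.15) in 14 D2 mice, without overlap; D2 balanced mouse 5 had no value. Within scan day 2 the gap was -1.79. Of 13 other steroid and vitamin D genes tested, 11 were higher and 2 lower in D2, against 25.9% and 24.2% of all genes. Under deficiency averaged over strains 6 of the 13 fell and 1 rose, against 4.20% and 3.91% of all genes. Hsd3b1, which makes ketosteroids, was at -1.11 (SE 0.14, adjusted p = 2.45e-05). Srd5a1, the testosterone reductase, was at -1.08 (SE 0.15, adjusted p = 6.97e-05), while Cyp17a1 (0.03) and Cyp21a1 (-0.04) were near 0.

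Cyp20a1, whose substrate is unknown, was at 9.93, 9.56, 9.83, 10.10 and 9.56 in balanced and at 10.20, 10.17, 9.99, 10.21 and 10.24 in enriched B6 livers, with overlap. It rose by 0.37 (SE 0.10, adjusted p = 0.0285). The call was lost without B6 balanced mouse 2 or 5 or B6 enriched mouse 1, 2, 4 or 5 (0.31 to 0.36, adjusted p = 0.0541 to 0.0921), with normexp (adjusted p = 0.0719), without normalization (adjusted p = 0.0613) and with the compared groups alone (adjusted p = 0.15). Cyp27b1, the vitamin D activating enzyme, and Cyp46a1, the cholesterol 24-hydroxylase, were lower in D2 by 0.50 and 0.33 (-0.50, SE 0.19, adjusted p = 0.0334, and -0.33, SE 0.12, adjusted p = 0.0267). The dimmer Cyp27b1 probe gave -0.03. With scan day as a block the Cyp46a1 call was lost (-0.25, adjusted p = 0.0853), and within scan day 3 the Cyp46a1 value was 0.077. Cyp27b1 stood at -0.16 with scan day and at -0.12 with slide as a block. Its probe has no value for D2 balanced mouse 5, and with a missing value the SE of a block fit is approximate. Its adjusted p-values with a block (0.128 and 0.0353) are therefore not read. Cyp27b1 lost its call with the mean of probes (-0.32, adjusted p = 0.103), with no filter (adjusted p = 0.0525) and without any 1 of 12 mice: B6 balanced mouse 4 or 5, B6 enriched mouse 1 or 4, B6 deficient mouse 1, D2 balanced mouse 1, D2 enriched mouse 3, 4 or 5, and D2 deficient mouse 2, 4 or 5 (-0.48 to -0.42, adjusted p = 0.0501 to 0.0609). Cyp46a1 lost its call without B6 deficient mouse 4, D2 balanced mouse 2 or D2 enriched mouse 3 (adjusted p = 0.0504 to 0.0510). Cyp21a1 passed in no comparison.

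Every P450 needs heme and electrons. Of 10 genes for electron transfer and heme supply, among them Por, the main reductase, 0 of 10 changed under deficiency averaged over strains (limma). Alas1, the first enzyme of heme synthesis in liver, fell by 0.97 in enriched B6 livers (-0.97, SE 0.26, adjusted p = 0.0232) and by 0.69 averaged over strains (-0.69, SE 0.18, adjusted p = 0.0421). Of 12 liver transcription factor genes, Foxa3 and Cebpa fell in enriched B6 livers (-0.78, SE 0.14, adjusted p = 0.00109, and -0.50, SE 0.12, adjusted p = 0.0124), and none changed under deficiency averaged over strains. Position in the lobule was read from marker genes: under deficiency averaged over strains 4 of 9 pericentral genes rose (0 fell) and 4 of 9 periportal genes fell (0 rose), against 3.91% and 4.20% of all genes, with medians of 0.37 and -0.25 beside -0.00018 over all genes tested. The summed pericentral level was 17.44 to 17.94 in balanced and 17.89 to 18.28 in deficient B6 livers, and 17.56 to 17.77 and 17.97 to 18.21 in D2. The summed periportal level was 19.03 to 19.21 and 18.78 to 19.09 in B6, and 18.64 to 18.95 and 18.69 to 18.85 in D2. Oat (0.50) and Lgr5 (0.74) led the former, Sds (-0.70) and Gls2 (-0.33) the latter. Between strains, 5 of 9 periportal genes were lower and 1 higher in D2, against 24.2% and 25.9% of all genes. Their part in the P450 changes was not tested. Of 10 eicosanoid enzymes Ptgds and Ptgis were lower by 0.74 and 0.59 under deficiency averaged over strains (-0.74 and -0.59). These were 2 of 10, with 0 called higher and a median of 0.02, where 4.20% of all genes fell. In B6 alone and in D2 alone 0 of the 10 passed.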

How the data were processed

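Liver RNA of 30 mice was measured on 30 arrays of 1 colour, 1 mouse each. The deposited values are the spot intensity of a scanner. Per the file headers, Agilent Feature Extraction 9.1.3.1 wrote them, and its processed signal has the background subtracted. Per the labels' design text, the authors normalized by the quantile method. Of the processed intensity, control spots and outlier spots were left out, spots of 1 probe averaged (41174 probes), arrays quantile normalized, values raised to a floor of 15.1 (log2 3.92) and log2 transformed. Probes well above background on at least 3 B6 and 3 D2 arrays were kept (29986), and the brightest probe stood for a gene (21071 genes). Names came from a RefSeq table of GRCm38.p6 (22944 probes by accession, 6664 by symbol, 11566 with the array's name); the files name no build. Promoter windows came from RefSeq (GRCm38.p6) and matched 21 of the 28 tested genes. Group means of all 30 arrays were fitted with limma 3.58.1 in R 4.3.3, with Benjamini-Hochberg adjustment at 0.05; adjusted p-values come from this fit. The script was tested on simulated data. The genes named were, per diet comparison, up to 8 with the smallest adjusted p, and between strains the 10 with the largest change among those past 0.05; other values were added as description. The genes and lists were chosen with earlier results of these data known. The authors' analysis of variance with permutation was not run. The arrays lay on 10 slides scanned on 3 days (5, 11 and 14 arrays). Alternatives were other scaling, background correction, filters, probe choice, slide and scan day, compared groups alone and each mouse left out. Single values of 2 list genes are not reported here.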

Additional observations from a re-analysis of the deposited data

Results flagged for a closer look

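A pair of responses differed between strains by a test of the difference itself. The log2 change of Cyp4v3 with enrichment was -0.69 in B6 and 0.22 in D2, a difference of 0.91. For the dimmer Cyp4a12 probe the difference was 2.75, D2 minus B6.

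Single mice stood apart from the other 4 of their group, by the ratio of their gap to the group's range. These were Cyp3a11 in D2 balanced mouse 4 (16.36, lowest), Cyp4a10 in D2 deficient mouse 2 (17.77, highest), the brighter Cyp4a12 probe in B6 balanced mouse 1 (16.32, highest) and the dimmer one in B6 deficient mouse 3 (11.74, lowest). The others were Cyp20a1 in B6 enriched mouse 3 (9.99, lowest), Cyp26b1 in B6 enriched mouse 5 (11.29, highest) and Cyp39a1 in B6 deficient mouse 4 (13.60, lowest). Chance marks about 1 in 20 such groups, and 7 of 126 groups were marked here.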

How the results depend on the processing

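The counts of changed P450 genes rested on modest numbers. For iron deficiency averaged over strains the 9 genes became 4 with a slide block, 0 and 4 inside scan days 2 and 3, and 6 to 10 as each mouse was left out. For deficiency in D2 the 6 became 0, 0 and 2 within scan days 1, 2 and 3 (5 to 7 as each mouse was left out). In B6 the 1 became 2 with the mean of probes and 0 within scan day 2 or 3. For enrichment in B6 the 5 became 2 with the compared groups alone, 0 and 2 inside scan days 2 and 3, and ranged from 3 to 5 as each mouse was left out; 3 were left without B6 balanced mouse 2 or 5 or B6 enriched mouse 4. In D2 the count of 0 became 1 within scan day 3. Averaged over strains the 1 became 2 with 75th percentile scaling, without normalization, with the mean of probes or without D2 balanced mouse 5, and 0 within scan day 2 (range 1 to 2 as each mouse was left out). The strain difference of the enrichment effect gave 2 genes with 75th percentile scaling, normexp or the mean of probes, 4 without normalization and 0 within scan day 2, and 1 to 3 as each mouse was left out; it gave 3 without B6 balanced mouse 2, and 2 without B6 deficient mouse 2 or 3, D2 balanced mouse 5 or D2 enriched mouse 1. Between strains the 20 became 11 within scan day 2 and 17 to 22 as each mouse was left out. The deficiency change of Cyp4a12 averaged over strains turned from 0.34 to -0.27 with the mean of its probes, which point in opposite directions; within scan day 3 the strain difference of Cyp46a1 turned from -0.33 to 0.077; no other called change reversed in the alternatives run. Within scan days, arms of 1 mouse enter (in D2 deficiency on day 1 both arms, on day 3 the balanced arm; in B6 enrichment on day 2 both), assumed to vary like the other groups, so these counts say little about stability; the cause of the other losses was not tested. The 2.6 SD filter kept all 43 called changes. With scan day as a block 41 of 43 kept their call, and with no filter 41 of 43; the 9 counts stayed within 1.5 times in each. For Cyp17a1, Cyp26b1 and Cyp27b1, which have no value for D2 balanced mouse 5, the SE of a block fit is approximate. The strain difference of Cyp26b1 (-0.27) lost its call with no filter, with 75th percentile scaling, within scan day 2 and without any 1 of 14 mice, B6 balanced 1, 3 or 4, B6 enriched 5, B6 deficient 1, 4 or 5, D2 balanced 2 or 3, D2 enriched 3, 4 or 5 and D2 deficient 1 or 4 (adjusted p = 0.0554 to 0.0866), and that of Cyp4f18 (0.19) without normalization. No normalization moved the median of all genes in the strain comparison by -0.17. No paired analysis was possible because mouse numbers follow accession order and pair no animals across groups.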
